A study of Mus musculus with 6 samples.

Results

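The Serpin family of protease inhibitors was followed in 6 RNA-seq libraries of mouse liver, 3 from a normal diet and 3 from CDAHFD, a high-fat diet without choline and with defined amino acids, used to produce fatty, inflamed and scarred livers in mice. The members were the gene rows whose Ensembl ID carries a symbol of the form Serpin, a clade letter from a to i and a number, with at least 10 raw counts summed over the 6 libraries. Of 68 such rows, 40 were members, with 21 in clade a, 10 in clade b and 9 in clades c to i. The other rows held 0 counts (19 rows) or 1 to 9 counts (9 rows), and most of them belonged to clade b or to the Serpina3 cluster. The labels give the tissue and the diet alone. The sources used here give no strain, genotype, sex, age or time on the diet. Nor do they tie each library to its own animal, and the p-values therefore speak of the spread among the samples at hand, which may be partly technical.

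Most serpins trap a protease by offering it a reactive centre loop as bait, and the cut serpin then carries the protease away in a covalent complex. Hepatocytes secrete most of the serpins of blood plasma, which restrain clotting, fibrinolysis, complement and leukocyte proteases. Clade b serpins lack a classical secretion signal and act mainly inside cells, and some serpins inhibit nothing and serve as hormone carriers or chaperones. Mice carry several tandem copies of genes that are single in humans, among them the copies of alpha-1-antitrypsin (Serpina1a to Serpina1e) and of antichymotrypsin (the Serpina3 genes).

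Total counts ran from 21986215 to 25628531 per library. Changes are CDAHFD over normal diet on the log2 scale ± standard error, from edgeR's quasi-likelihood test, with 3 libraries per diet and p-values adjusted over all genes tested. A gene was called at an adjusted p under 0.05. Levels are given as TPM, which corrects for gene length and allows genes to be compared, as CPM, the counts scaled by TMM, or as raw counts. TPM sums to 1000000 in every library and is not scaled by TMM. TPM levels can therefore differ in size or direction from the changes given beside them. The 10 called among 12 hepatocyte markers were all lower on CDAHFD and the list summed to 115000 to 127000 CPM, against 151000 to 173000 on normal diet. All 6 lipid-associated macrophage markers rose, from a summed 37.7 to 42.1 CPM to 1070 to 1210 CPM, as did all 10 stellate cell and fibroblast markers, from 289 to 346 CPM to 1060 to 1210 CPM. In bulk RNA, fewer cells of a type and less RNA per cell cannot be told apart, and the part of these marker shifts in the Serpin changes was not tested. TMM set the median change of all genes at 0.01, while scaling by total counts moved that median by 0.32 and scaling by the hepatocyte markers moved it by 0.41.

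Serpin transcripts made up a smaller part of the liver's RNA on CDAHFD. Summed over the 40 members they took 5.55%, 5.15% and 6.61% of TPM on normal diet and 2.36%, 2.89% and 2.30% on CDAHFD, a mean of 5.77% ± 0.755 (SD, n = 3) against 2.52% ± 0.326. The groups did not overlap. The loss lay in clade a, whose summed level went from 53483 ± 7475 to 21119 ± 3227 TPM (SD, n = 3). Clades c to i summed to 4201 ± 144 TPM on normal diet and 4018 ± 85.2 TPM on CDAHFD, and clade b, a small part of the whole, to 17.2 ± 1.97 and 57.5 ± 6.91 TPM. Much of the clade a difference sat in Serpina1e and Serpina3k, and the other 19 clade a genes summed to 20817 ± 1462 and 15155 ± 1535 TPM.

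Gene by gene the family did not move one way. Of 36 members that passed edgeR's filter on low counts, 16 rose, 14 fell and 6 did not pass the test, with a median change of 0.05 and a range of -5.10 to 3.07. The test called 83.3% of the tested members and 52.1% of all genes tested, where 28.5% were called higher and 23.5% lower. The 4 members not tested were the rare clade b genes Serpinb1b, Serpinb1c, Serpinb10 and Serpinb12. Clade a had 8 genes higher, 8 lower and 5 not called, clade b 5 higher and 1 lower, and clades c to i 3 higher, 5 lower and 1 not called. Scaled to the hepatocyte markers, 18 members were called higher and 10 lower, and by total counts 16 and 12, so some of the small falls of abundant plasma serpins turned on the scaling.

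**Figure D1:**
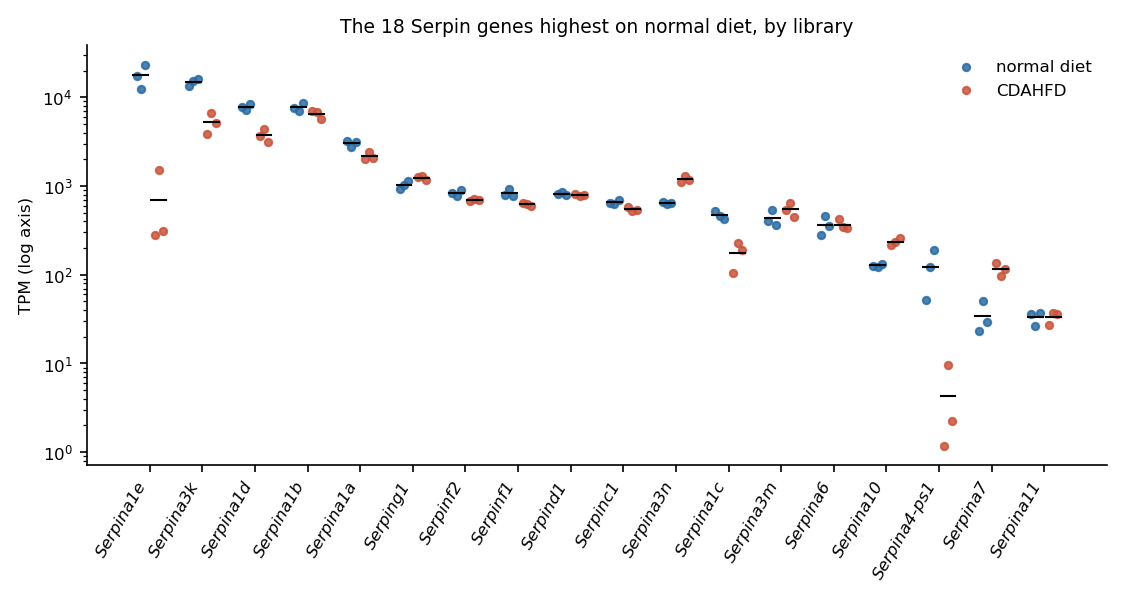
Levels in each library of the 18 Serpin genes highest on normal diet, as TPM on a log axis, with blue points for normal diet, red points for CDAHFD and a bar at each mean. Serpina1e stands at 12503 to 23444 TPM on normal diet and at 283 to 1500 TPM on CDAHFD, and Serping1, Serpind1 and Serpinc1 differ far less.

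**Figure D2:**
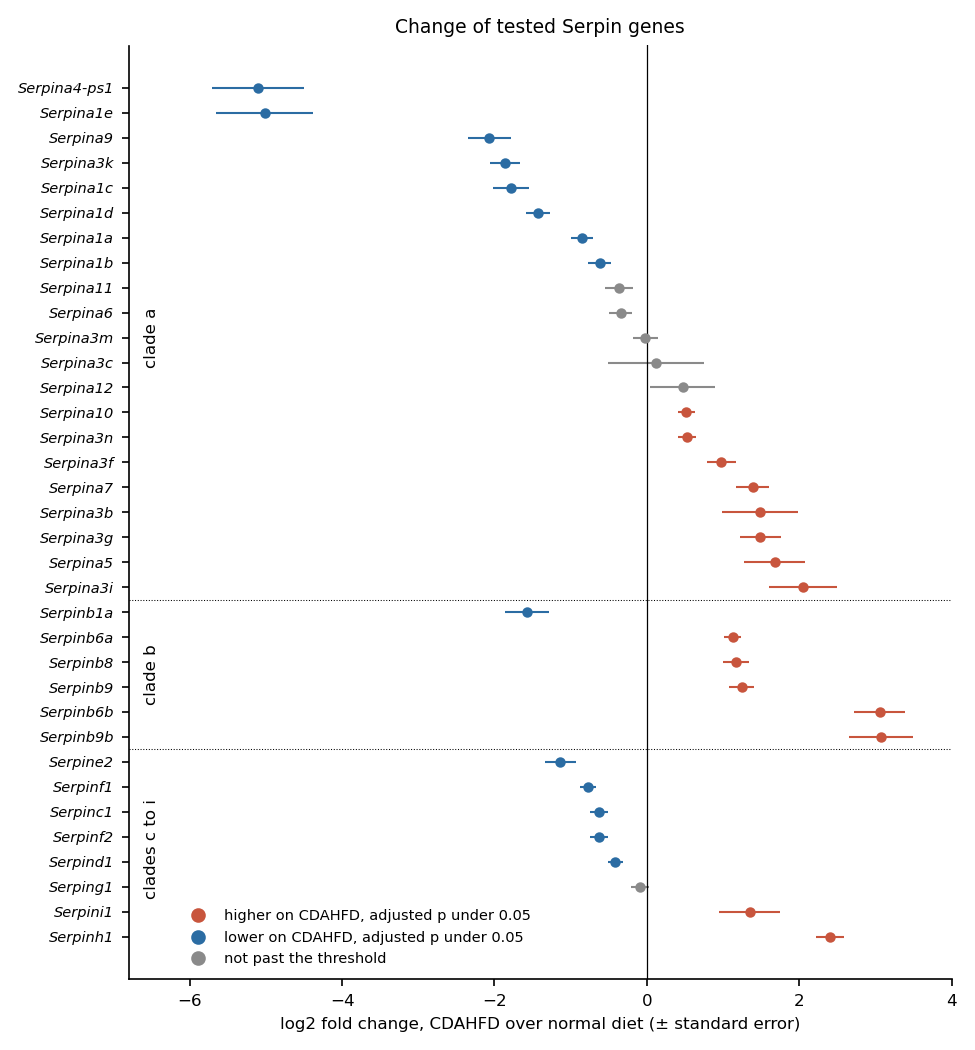
Log2 fold changes (CDAHFD over normal diet) for the tested members reported here, with edgeR's standard errors as bars, ordered by change within clade a, clade b and clades c to i, and coloured by call at an adjusted p of 0.05. Serpina4-ps1 at -5.10 and Serpina1e at -5.02 lie far from the others at one end, and Serpinb9b at 3.07 marks the other.

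The 5 Serpina1 copies, the mouse genes for alpha-1-antitrypsin, which guards tissue against neutrophil elastase, stand side by side on chromosome 12. They share a stretch of nearly the same letters close to their starts. The stretches below are 100 bases before the annotated transcription start, from RefSeq on GRCm38.p6, all read on the minus strand 5′ to 3′, at 0 to 62 bases from the start annotated for each gene. They are shown because genes with almost the same letters here differed widely in level and in change. Capitals mark the bases that differ from the Serpina1e stretch, or lie opposite a gap, in a pairwise alignment.
Serpina1a, chr12:103863625-103863724: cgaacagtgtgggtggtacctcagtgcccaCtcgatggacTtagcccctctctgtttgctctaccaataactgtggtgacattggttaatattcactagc
Serpina1b, chr12:103738200-103738299: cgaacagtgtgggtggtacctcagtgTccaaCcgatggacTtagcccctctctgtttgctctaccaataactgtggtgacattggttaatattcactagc
Serpina1c, chr12:103904962-103905061: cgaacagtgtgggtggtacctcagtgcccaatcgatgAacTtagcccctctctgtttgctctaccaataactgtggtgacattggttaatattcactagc
Serpina1d, chr12:103773634-103773733: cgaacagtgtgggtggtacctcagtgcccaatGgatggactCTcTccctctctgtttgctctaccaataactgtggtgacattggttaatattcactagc
Serpina1e, chr12:103956960-103957059: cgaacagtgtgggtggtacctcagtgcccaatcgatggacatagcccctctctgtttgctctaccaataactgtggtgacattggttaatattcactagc
Serpina1a and Serpina1c each differed from Serpina1e at 2 bases and Serpina1b at 3, and the last 55 bases were the same in all 5. The stretches were cut to end at the longest run common to all 5, so the choice fixed that identity. Over the full 250 bases before each annotated start, Serpina1e matched the other copies at 58.8% to 64.2% of aligned positions. The other copies matched one another at 84.3% to 91.4%. Gapped positions count in these percentages. Against each other copy, Serpina1e had 102 to 126 gapped positions and 3 to 9 differing bases. Pairs of the other copies had 4 to 24 and 10 to 19. The shared stretch lies 62 bases from the annotated start of Serpina1e and 0 to 11 bases from those of the others, so the windows are offset. In the stretch printed above, Serpina1d differed from Serpina1e at 3 bases and in 2 gapped positions of the alignment. Near its end the shared run holds a match to GTTAAT, the half-site of the hepatocyte factor HNF1. These letters occurred on either strand within 250 bases before the start in 6.43% of 32851 mouse promoter windows, and in 9 of 37 windows of members. Those 9 were the windows of the 5 Serpina1 copies, Serpina7, Serpinb8 and Serpina3c, with Serpina7 counted at each of its annotated starts. As the Serpina1 copies hold the same run, the 9 windows are not independent and do not show an excess in the family. A match is a description of the letters and was not tested for binding.

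All 5 Serpina1 genes fell, with changes from -0.62 to -5.02. Serpina1e measured 17326, 12503 and 23444 TPM on normal diet and 283, 1500 and 315 TPM on CDAHFD. It was the most abundant Serpin transcript of the normal diet libraries and the eighth on CDAHFD, and replicate 2 of CDAHFD stood well above the other two. The change was -5.02 ± 0.63 (edgeR adjusted p = 6.27e-05), and -6.33 without that library.

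Serpina1d measured 7750, 7214 and 8370 TPM on normal diet against 3697, 4346 and 3150 TPM on CDAHFD, a change of -1.42 ± 0.16 (edgeR adjusted p = 2.45e-05). Serpina1c, the least abundant copy, went from 524, 460 and 424 TPM to 105, 228 and 192 TPM, a change of -1.78 ± 0.24 (edgeR adjusted p = 8.79e-05). In both genes every CDAHFD library lay below every normal diet library. Serpina1a measured 3204, 2781 and 3120 TPM on normal diet and 2013, 2417 and 2078 TPM on CDAHFD, and fell by 0.85 on the log2 scale (SE 0.14, edgeR adjusted p = 0.000375). Its groups were apart as well.

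Serpina1b had the smallest change of the 5. It measured 7554, 7039 and 8629 TPM on normal diet and 7004, 6848 and 5670 TPM on CDAHFD, so that the highest CDAHFD library came just under the lowest normal diet library. The change was -0.62 ± 0.15 (edgeR adjusted p = 0.00536), and scaled to the hepatocyte markers it was -0.22 with an adjusted p of 0.212. The other four copies stayed called under that scaling, with Serpina1e at -4.65 and Serpina1a at -0.44.

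Shares of the summed Serpina1 TPM show the makeup of the alpha-1-antitrypsin transcript pool. Serpina1e held 47.7%, 41.7% and 53.3% on normal diet against 2.16%, 9.78% and 2.77% on CDAHFD. Serpina1b held 21.3% ± 1.97 on normal diet and 49.3% ± 4.42 on CDAHFD (SD, n = 3), and became the leading copy in all 3 CDAHFD libraries. Serpina1d went from 21.5% ± 2.51 to 28.1% ± 0.382 and Serpina1a from 8.39% ± 1.15 to 16.4% ± 1.55. These 4 shares did not overlap between the diets (two-sided exact permutation test, p = 0.1, the smallest that 3 against 3 allows), while the share of Serpina1c, 1.31% ± 0.306 and 1.33% ± 0.462, did (p = 1). Shares are parts of the same sum, so the fall of Serpina1e raises the others, and the 4 tests are not separate evidence. Serpina1a, Serpina1b and Serpina1d themselves fell, as given above. Serpina1e over Serpina1b was 2.26 ± 0.471 in TPM on normal diet and 0.105 ± 0.099 on CDAHFD. The 5 copies together summed to 36781 ± 7004 TPM and 13283 ± 1974 TPM.

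**Figure D3:**
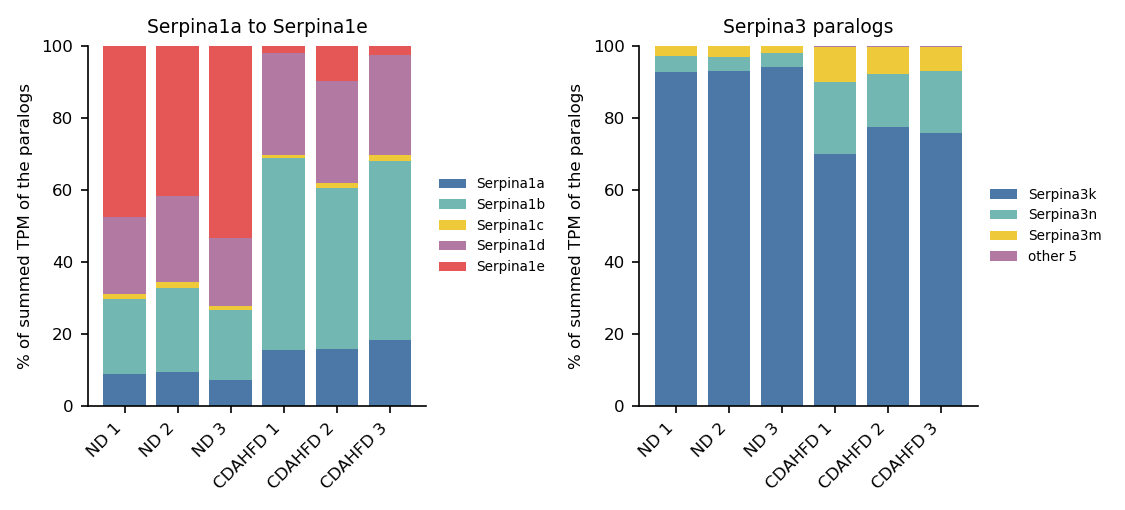
Shares of the summed TPM of the Serpina1 copies and of the Serpina3 paralogs held by each gene, for each of the 6 libraries, as stacked bars from 0 to 100%. Serpina1e takes 41.7% to 53.3% of the Serpina1 sum on normal diet and 2.16% to 9.78% on CDAHFD, and Serpina3k takes the largest share of the Serpina3 sum in every library.

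How far these copies can be told apart depends on the reads. In the transcripts of the GENCODE annotation for the older build, 85.2% of 100-base windows of Serpina1e occurred in no other gene, against 79.4% for Serpina1b, 70.7% for Serpina1d, 50.1% for Serpina1a and 30.7% for Serpina1c. With 50-base windows the Serpina1e value was 64.4% and the Serpina1c value 20.7%. The sources used here give neither the read length nor the treatment of reads that fit several genes, so the values of single copies, Serpina1c and Serpina1a above all, are uncertain. The Serpina3 members were more distinct, with 93.9% to 100% of their 100-base windows found nowhere else. Outside these groups, Serpinc1 shared transcript sequence with Zbtb37 (41.6% of windows in no other gene) and Serpina11 with Gm28577 (58.1%), so their values may hold reads of those genes. Serpinb6a shared less, with 87.8% of its 100-base windows in no other gene, as did Serpinb9b (98.0%) and Serpini1 (99.8%).

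The Serpina3 genes, mouse relatives of antichymotrypsin, split into an abundant gene that fell and rarer genes that rose. Serpina3k, a relative of the kallikrein-binding serpins, measured 13522, 15253 and 15948 TPM on normal diet and 3886, 6743 and 5166 TPM on CDAHFD. It was the second Serpin transcript in abundance on both diets, and the groups were far apart. The change was -1.86 ± 0.20 (edgeR adjusted p = 1.79e-05).

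Serpina3n, an acute-phase gene whose product inhibits leukocyte proteases, moved the other way. It measured 659, 622 and 652 TPM on normal diet and 1121, 1301 and 1174 TPM on CDAHFD. All 3 CDAHFD libraries were well above the tight normal diet group. The change was 0.53 ± 0.12 (edgeR adjusted p = 0.00323), or 0.94 when scaled to the hepatocyte markers. Serpina3n over Serpina3k in TPM was 0.0487, 0.0408 and 0.0409 on normal diet against 0.289, 0.193 and 0.227 on CDAHFD. Within the 8 Serpina3 members, the share of Serpina3k went from 93.2% ± 0.691 to 74.3% ± 3.93 and that of Serpina3n from 4.05% ± 0.407 to 17.4% ± 2.63 (SD, n = 3).

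Rarer Serpina3 genes rose too. Serpina3g measured 2.47, 2.50 and 2.97 TPM on normal diet and 6.54, 13.0 and 9.01 TPM on CDAHFD, a change of 1.49 ± 0.27 (edgeR adjusted p = 0.00079). Its neighbour Serpina3f went from 5.83 ± 1.12 to 14.7 ± 2.38 TPM, with a change of 0.98 ± 0.19. Both genes had CDAHFD libraries above every normal diet library. Serpina3i had 3, 2 and 6 counts on normal diet and 20, 21 and 19 counts on CDAHFD, a change of 2.05 ± 0.44 (edgeR adjusted p = 0.00249).

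Serpina3b had 8, 1 and 6 counts on normal diet and 16, 23 and 16 counts on CDAHFD. The CDAHFD libraries were all higher, but the call at 1.48 ± 0.50 (edgeR adjusted p = 0.0279) was lost with DESeq2 (adjusted p = 0.0591) and, without normal diet replicate 2 or any 1 of the CDAHFD replicates, in edgeR at adjusted p from 0.0559 to 0.0899. Serpina3m, the third of the group in abundance, measured 434 ± 91.5 and 545 ± 100.5 TPM and did not pass at -0.02 ± 0.16. Serpina3c, with 6, 3 and 25 counts against 19, 21 and 8, did not pass either and its groups overlapped.

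Serpina3c and Serpina3n are an example of close promoter letters beside unlike levels. Both sequences are the 250 bases before the annotated start in RefSeq on GRCm38.p6, 5′ to 3′, and capitals in the Serpina3c line mark bases that differ from Serpina3n or lie opposite a gap.
Serpina3n, chr12:104406458-104406707, plus strand: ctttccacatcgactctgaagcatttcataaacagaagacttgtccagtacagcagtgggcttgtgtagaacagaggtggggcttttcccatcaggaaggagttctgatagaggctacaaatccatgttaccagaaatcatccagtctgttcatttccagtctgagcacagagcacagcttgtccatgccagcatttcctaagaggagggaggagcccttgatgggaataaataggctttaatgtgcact
Serpina3c, chr12:104153873-104154122, minus strand: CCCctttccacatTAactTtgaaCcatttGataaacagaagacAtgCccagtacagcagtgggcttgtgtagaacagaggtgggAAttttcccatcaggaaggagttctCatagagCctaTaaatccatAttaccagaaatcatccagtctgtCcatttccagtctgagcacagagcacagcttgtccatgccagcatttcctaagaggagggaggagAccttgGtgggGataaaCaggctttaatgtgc
They matched at 90.5% of 253 aligned positions. Among the differences, the Serpina3c stretch holds matches to GTTAAT and to TATAAA, the letters of the TATA box, and that of Serpina3n holds neither. The TATAAA match of Serpina3c lies near the middle of the stretch, away from the start. Only these exact letters were searched, so a near match in either gene was not counted. TTNNGNAA, a loose form of the C/EBP motif, had 1 match in Serpina3c and 2 in Serpina3n. Serpina3n stood at 644 ± 19.8 TPM on normal diet, while Serpina3c had no more than 25 counts in any library. The letters TTCNNNGAA, the core bound by STAT factors, were searched on both strands within 250 bases before the start. They occurred in 7.02% of all windows and in 7 of 37 member windows, those of Serpina3f, Serpina3g, Serpina3i, Serpina11 and Serpinb6a. Serpina3f, Serpina11 and Serpinb6a have more than 1 annotated start, and Serpinb6a holds the match at 1 start and not at another. TTNNGNAA occurred in 36.8% of all windows and in 24 member windows, and TATAAA in 12.4% and in 8. Matches of different motifs overlapped in 1 member window.

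Among the other clade a genes are hormone carriers and inhibitors of clotting enzymes. Serpina7, thyroxine-binding globulin, rose from 23.2, 51.2 and 29.3 TPM to 135, 95.9 and 115 TPM. Its lowest CDAHFD library stood well above the highest normal diet library, and the change was 1.39 ± 0.22 (edgeR adjusted p = 0.000304). Serpina6, the corticosteroid carrier, showed no such rise, at 365 ± 86.0 TPM on normal diet and 369 ± 49.7 TPM on CDAHFD, and did not pass at -0.34 ± 0.15 (edgeR adjusted p = 0.0765). It was called lower with DESeq2 (adjusted p = 0.0416), with no filter (edgeR adjusted p = 0.0263), and without normal diet replicate 1 (-0.49, edgeR adjusted p = 0.0214) or CDAHFD replicate 1 (-0.48, edgeR adjusted p = 0.0328), while it came to 0.059 scaled to the hepatocyte markers. The difference between the changes of these carriers was not tested.

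Serpina10, the protein Z-dependent inhibitor of clotting factor Xa, rose from 128 ± 5.31 to 237 ± 22.4 TPM, a change of 0.52 ± 0.11 (edgeR adjusted p = 0.00268). Serpina5, the protein C inhibitor, had few counts, 4, 6 and 5 on normal diet against 15, 28 and 20 on CDAHFD, and rose by 1.68 ± 0.40 on the log2 scale (edgeR adjusted p = 0.00474). The groups of both genes were apart. Serpina9, known from germinal centre B cells, had 57, 45 and 65 counts on normal diet and 18, 16 and 17 on CDAHFD, a change of -2.07 ± 0.28 (edgeR adjusted p = 9.71e-05). Beside it, 2 of the 4 tested B and plasma cell markers rose and none fell, from a summed 6.52 to 7.42 CPM to 11.9 to 21.5 CPM.

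Serpina4-ps1, annotated as a pseudogene, fell about as far as Serpina1e. It measured 52.1, 122 and 189 TPM on normal diet and 1.19, 9.57 and 2.23 TPM on CDAHFD. As for Serpina1e, CDAHFD replicate 2 kept the most, and normal diet replicate 3 was the highest of all. The change was -5.10 ± 0.61 (edgeR adjusted p = 4.05e-05), and -6.56 without CDAHFD replicate 2.

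Serpina12, the adipokine vaspin, measured 13.2, 10.1 and 42.8 TPM on normal diet and 30.8, 44.2 and 44.6 TPM on CDAHFD. Normal diet replicate 3 lay within the CDAHFD group, and the change of 0.47 ± 0.42 did not pass (edgeR adjusted p = 0.377). Without that library it was 1.41 with an adjusted p of 0.00013, and scaled to the hepatocyte markers it was 0.85 with an adjusted p of 0.0384. Serpina11 did not pass, at -0.37 ± 0.18.

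Apart from Serpina3k, the clade a genes that fell on chromosome 12 lay in a run that held none that rose. In the gene order of GRCm38.p6, Serpina10, which rose, and Serpina6, which did not pass, come before the 5 falling Serpina1 copies. Next are Serpina11, Serpina9, Serpina12 and Serpina4-ps1, of which Serpina11 and Serpina12 did not pass and the others fell. Serpina5 and the Serpina3 genes follow, and those of them that were called rose, apart from Serpina3k. Serpina3k lies between Serpina3i, which rose, and Serpina3m, which did not pass. Serpina3j, under 10 counts, is just before it and the pseudogene Serpina3l-ps just after it. Serpina7 is on the X chromosome.

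**Figure D4:**
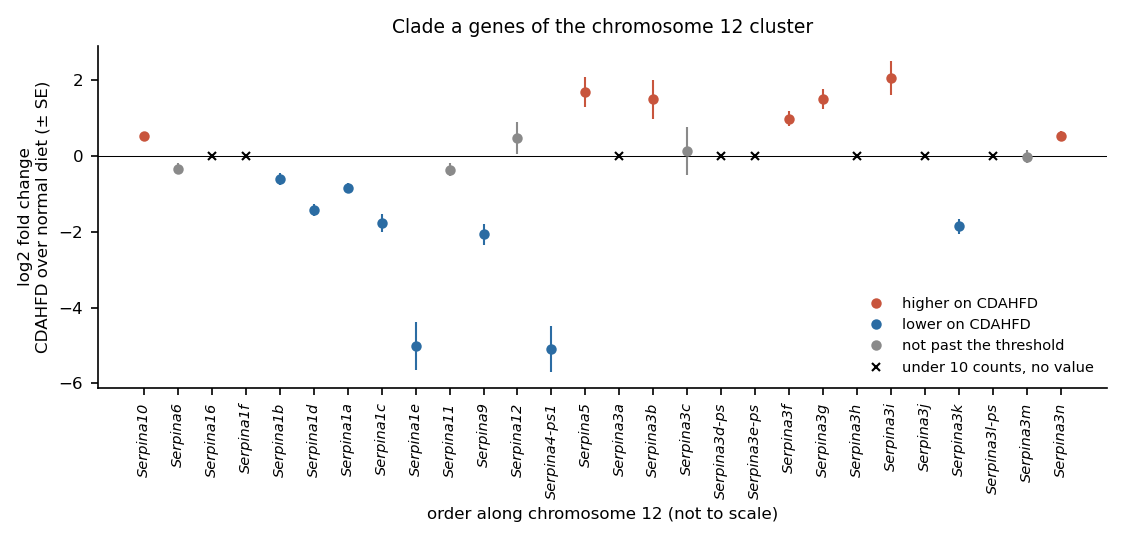
Log2 fold changes (CDAHFD over normal diet, with standard errors) of the clade a genes in their order along chromosome 12, evenly spaced, with crosses at 0 for genes under 10 counts, which have no value. Serpina1e at -5.02 and Serpina4-ps1 at -5.10 are the lowest points, with Serpina12 at 0.47 between them.

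Clade b, the serpins that act inside cells, was low in these livers, and of its 6 tested genes 5 rose and 1 fell. Serpinb6a, an inhibitor of the neutrophil protease cathepsin G, led the clade in TPM on normal diet together with Serpinb9. It measured 5.32, 6.05 and 5.52 TPM on normal diet and 14.7, 15.4 and 17.3 TPM on CDAHFD, a change of 1.13 ± 0.11 (edgeR adjusted p = 1.14e-05). Serpinb9, the inhibitor of granzyme B, measured 4.17, 7.25 and 5.54 TPM on normal diet and 16.4, 16.9 and 18.04 TPM on CDAHFD, a change of 1.24 ± 0.16 (edgeR adjusted p = 8.21e-05). Neither gene had overlapping groups.

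The copies of these genes had larger changes from lower levels. Serpinb6b had 52, 25 and 15 counts on normal diet and 315, 267 and 399 counts on CDAHFD, a change of 3.06 ± 0.33 (edgeR adjusted p = 2.05e-05), and its 17.7, 12.7 and 22.01 TPM on CDAHFD stood beside the levels of Serpinb6a and Serpinb9. Serpinb9b had 2, 3 and 2 counts on normal diet and 22, 28 and 29 counts on CDAHFD, a change of 3.07 ± 0.42 (edgeR adjusted p = 0.000121). Both were far above the normal diet level in each CDAHFD library. Serpinb8, an inhibitor of furin-like proteases, had 57, 54 and 54 counts on normal diet and 147, 175 and 158 on CDAHFD, a change of 1.17 ± 0.17 (edgeR adjusted p = 0.000157).

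Serpinb1a, an inhibitor of neutrophil elastase and related serine proteases, was the exception. It had 67, 56 and 41 counts on normal diet and 27, 19 and 24 counts on CDAHFD, and fell by 1.58 on the log2 scale (SE 0.29, edgeR adjusted p = 0.000842). Its groups were apart, with the normal diet higher. Its copies Serpinb1b and Serpinb1c had 0 counts in every normal diet library, as did Serpinb10 and Serpinb12. On CDAHFD these 4 genes had 6, 3 and 6 counts, 3, 6 and 2 counts, 4, 1 and 7 counts, and 0, 2 and 8 counts in turn, too few for the filter.

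Leukocyte markers moved beside clade b. Of 9 Kupffer cell and macrophage markers 6 rose, from a summed 359 to 468 CPM to 1300 to 1470 CPM. All 5 tested of 7 neutrophil markers rose, from 2.16 to 3.6 CPM to 22.4 to 27.6 CPM, and 5 of 7 T and NK cell markers rose, from 3.34 to 6.90 CPM to 11.6 to 18.5 CPM. Their part in the clade b changes was not tested. Among the other lists, all 6 cholangiocyte markers rose, from 26.9 to 33.6 CPM to 158 to 203 CPM, and 2 of 7 endothelial and 2 of 3 tested mesothelial markers did. Some genes are on more than a single list, Spp1 on the cholangiocyte and lipid-associated macrophage lists and Krt19 on the cholangiocyte and mesothelial lists. The 1 mast cell marker tested did not pass, and Cpa3, a defining mast cell protease, had 0 counts.

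Among clades c to i, the collagen chaperone had a large rise. Serpinh1, the chaperone Hsp47 that helps procollagen fold in the endoplasmic reticulum, measured 12.5, 11.3 and 15.1 TPM on normal diet and 76.1, 75.2 and 116 TPM on CDAHFD. CDAHFD replicate 3 was the highest, and the groups were far apart. The change was 2.40 ± 0.18 (edgeR adjusted p = 1.41e-06). All 8 procollagen genes of the client list rose with it, by a median of 2.96 on the log2 scale, and Col1a1, the main chain of type I collagen, changed by 5.05 ± 0.22. The stellate cell markers given above moved with Serpinh1 as well, and their part was not tested. Col1a1 and Col1a2 are on both lists, so the lists are not separate.

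Serpine2, protease nexin 1, an inhibitor of thrombin and other serine proteases, fell. It had 510, 498 and 305 counts on normal diet and 187, 303 and 282 counts on CDAHFD, a change of -1.14 ± 0.20 (edgeR adjusted p = 0.000732). The highest CDAHFD library came close to the lowest normal diet library in raw counts. Serpini1, neuroserpin, had 4, 5 and 6 counts on normal diet and 13, 21 and 16 on CDAHFD. Its change of 1.35 ± 0.40 (edgeR adjusted p = 0.0151) lost the call with DESeq2 (adjusted p = 0.0761), without normal diet replicate 1 (edgeR adjusted p = 0.0671) and without CDAHFD replicate 2 (edgeR adjusted p = 0.0614).

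**Figure D5:**
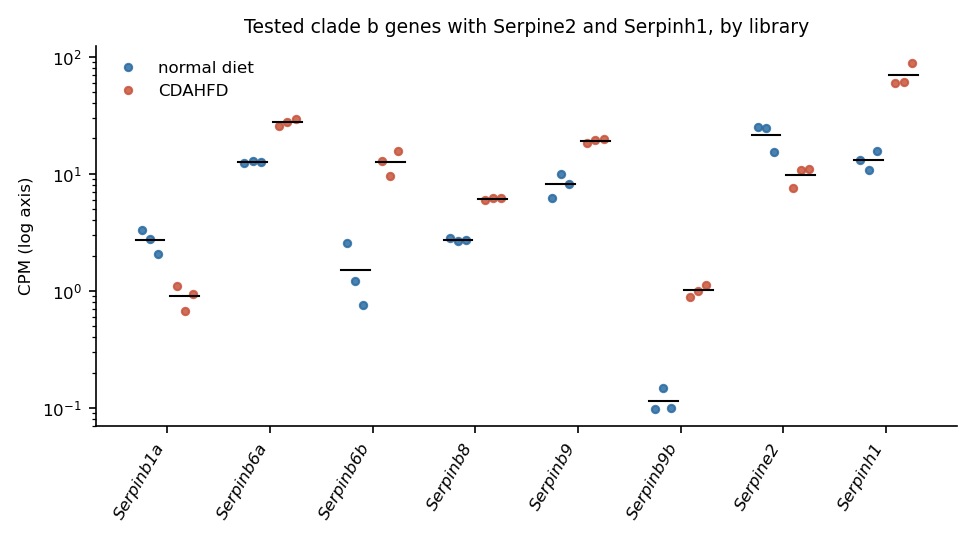
CPM on a log axis, in each library, of the 6 tested clade b genes and of Serpine2 and Serpinh1, with blue points for normal diet, red points for CDAHFD and a bar at each mean. Of these genes, Serpinb1a and Serpine2 have their CDAHFD points below the normal diet points and the others have them above.

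Of the abundant plasma serpins of these clades, 4 fell by less than 2-fold and Serping1 did not pass. Serpinf1, pigment epithelium-derived factor, which inhibits no protease, measured 797, 922 and 779 TPM on normal diet and 648, 627 and 603 TPM on CDAHFD, a change of -0.77 ± 0.11 (edgeR adjusted p = 0.000121). Serpinf2, alpha-2-antiplasmin, the main inhibitor of plasmin, measured 834, 777 and 902 TPM on normal diet and 685, 723 and 688 TPM on CDAHFD, a change of -0.63 ± 0.12 (edgeR adjusted p = 0.0011). In both genes all CDAHFD libraries lay below the normal diet libraries. Serpinc1, antithrombin, went from 659 ± 33.4 to 550 ± 30.7 TPM (SD, n = 3), a change of -0.63 ± 0.12 (edgeR adjusted p = 0.00103).

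Serpind1, heparin cofactor II, also a thrombin inhibitor, measured 806, 864 and 796 TPM on normal diet and 807, 779 and 797 TPM on CDAHFD, so that in TPM its groups overlapped. With TMM its change was -0.41 ± 0.10 (edgeR adjusted p = 0.00513), but scaled by total counts it was -0.09 with an adjusted p of 0.484. Scaled to the hepatocyte markers, Serpinc1 and Serpinf2 each came to -0.22 and lost the call (adjusted p = 0.177 and 0.182), while Serpinf1 kept it at -0.36. Serping1, the C1 inhibitor of complement and contact activation, measured 934, 1026 and 1127 TPM on normal diet and 1265, 1310 and 1156 TPM on CDAHFD. It did not pass at -0.09 ± 0.12, and scaled by total counts the change was 0.23, so its direction turned on the scaling.

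The proteases that these inhibitors meet were read from lists of related genes. Of 14 circulating proteases of clotting, fibrinolysis and complement, 9 fell, 5 did not pass and none rose. Their median change was -0.46, against 0.01 for all genes. Over all genes tested, 52.1% were called, 28.5% higher and 23.5% lower, and these shares stand beside the counts of each list. Klkb1, plasma prekallikrein, changed by -1.03 ± 0.11, clotting factor VII (F7) by -0.81 ± 0.11, Masp2 of the lectin pathway of complement by -0.74 ± 0.14 and Plg, plasminogen, by -0.71 ± 0.12. The fit scaled to the hepatocyte markers covered all genes but was not summarised for these lists. That scaling moved the median of all genes by 0.41, a shift close in size to the list median. How far the fall of the circulating proteases rests on TMM was not tested.

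Of 17 leukocyte and intracellular proteases, 11 were tested, of which 9 rose and 2 fell, with a median change of 1.47. Ctsk, cathepsin K, rose by 3.58 ± 0.27, Ctss, cathepsin S, by 2.87 ± 0.13, Casp4, an inflammatory caspase, by 1.93 ± 0.24 and Gzma, granzyme A, by 1.60 ± 0.33, all on the log2 scale. Elane, Ctsg and Prtn3, the neutrophil serine proteases that Serpina1, Serpinb1a and Serpinb6a are known to inhibit, were too low to be tested.

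Of 10 genes of plasminogen activation, serpin cofactors and clearance, 5 rose, 1 fell and 4 did not pass, with a median change of 0.32. The number called was not far from the 52.1% called over all genes tested. Plat, tissue plasminogen activator, rose by 4.00 ± 0.32, Plaur, the urokinase receptor, by 3.74 ± 0.23 and Plau, urokinase, by 2.64 ± 0.22 on the log2 scale. Procr, the protein C receptor, rose by 3.10 ± 0.31.

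Protease inhibitors of other folds were mixed, like the serpins. Of 27 such genes 25 were tested, of which 10 rose, 8 fell and 7 did not pass, with a median change of -0.03. Over all genes tested, 28.5% were called higher and 23.5% lower. Slpi, a secreted leukocyte protease inhibitor, rose by 3.66 ± 0.36, Spint1, an inhibitor of membrane serine proteases, by 2.15 ± 0.35, Cstb, cystatin B, by 1.77 ± 0.13 and Wfdc17 by 1.15 ± 0.19. Agt, angiotensinogen, a hormone precursor with a serpin fold but another symbol, did not pass at -0.15 ± 0.12 (edgeR adjusted p = 0.314).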

How the data were processed

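For each of the 6 libraries the authors deposited whole-number read counts by gene and the matching TPM. Per the labels' protocols, libraries were made with a stranded mRNA kit from 1 µg of TRIzol-extracted RNA. STAR 2.7.11a and GRCm39 are listed in the submitters' processing notes, and the sources used here give no counting tool, rule for reads that fit several genes, annotation or strand setting. Symbols were matched for 51911 of 56847 gene IDs. The reference used here is GRCm38, another build than the files', so it served for names, gene order and its own promoter sequences, which 31 of 40 members had.

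Genes were kept with filterByExpr by group (minimum count 10), which left 14215, and scaled by TMM. The edgeR 4.0.16 quasi-likelihood fit in R 4.3.3 used all 6 libraries with diet as its term, with p-values adjusted by Benjamini-Hochberg over the 14215 genes and called under 0.05. The fit was tested on simulated data. Alternatives used DESeq2 1.42.0, limma 3.58.1 (voom, and log2 of TPM plus a pseudocount of 1 or 0.1), other scalings and filters, a replicate block and leaving out each library. Shares within paralogs use TPM, and the widest 95% Wilson interval of a share of counts spanned 0.599 percentage points, for counting error only. No library looked like a second copy of another (chi-square per degree of freedom 19.4 to 41.9 within a diet).

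The members, the related gene lists and the tests were chosen with earlier results of these data known. Values in every library are given for called members with a log2 change of at least 1 in size and for the 10 highest in mean TPM, and any other member so shown was chosen after its values were seen. From each other list, up to 4 called genes are named, those of largest change whose mean reached 1 CPM. A member that enters the counts and sums is not reported here by name.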

Additional observations from a re-analysis of the deposited data

How the results depend on the processing

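Of the 30 called members, 24 kept their direction and call in every one of the 17 alternatives that gave them a value, and the filter at 1 CPM gave none for Serpina3i and Serpina5. With no filter, 21 members were called higher and 16 lower, and leaving out 1 library gave 14 to 17 higher and 14 to 15 lower. The replicate numbers did not pair the libraries (correlations of deviations -0.0471, 0.0688 and 0.118), and with the replicate block 16 members were higher and 14 lower, and 4046 and 3311 of all genes. Over all genes, the 4057 higher and 3347 lower calls became 6258 and 1147 with total counts, 6798 and 798 scaled to hepatocyte markers, 6449 and 897 on log2(TPM + 1), and 6433 and 897 on log2(TPM + 0.1). Members called neither way changed sign or gained a call in some settings. Serpina3m came to 0.30 with total counts, 0.38 scaled to hepatocyte markers (a call, adjusted p = 0.0416), 0.00051 with the filter at 1 CPM, 0.33 on either TPM scale, 0.10 without normal diet replicate 2 and 0.08 without CDAHFD replicate 3, where leaving out single libraries gave -0.23 to 0.10. Serping1 came to 0.23, 0.31, 0.28 and 0.28 with total counts, hepatocyte markers and the 2 TPM scales. Serpina6 came to 0.059, 0.034 and 0.034, and Serpina11 to 0.045, 0.0084 and 0.0087, with hepatocyte markers and the TPM scales. Serpina11 was called lower with no filter (adjusted p = 0.0351) and, at -0.55, without normal diet replicate 2 (adjusted p = 0.0139). Serpina3c came to -0.19 and -0.34 without normal diet replicates 1 and 2, and to -0.10 without CDAHFD replicate 1 or 2, within a range of -0.34 to 1.44 over single libraries left out. The cause of these turns was not tested. Members under about 20 counts a library, among them Serpina3b, Serpina3c, Serpina5 and Serpini1, are limited by counting error, and with 3 libraries per diet no permutation test of a share can go below 0.1.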
